A study of Sus scrofa with 12 samples.

Results

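FTO, WTAP and ELAVL1 are 3 genes of the N6-methyladenosine (m6A) machinery whose own transcripts carried listed m6A peaks in pig muscle. All peaks whose gene identifier was one of these names were taken, which gave 25 of the 13487 peaks in the series and 3 of the 2159 genes with a peak. WTAP had 16 peaks, FTO had 7 and ELAVL1 had 2. The series maps m6A in mRNA of longissimus dorsi, the long back muscle, from 5-day-old Large White and Ningxiang pigs by MeRIP-seq, an immunoprecipitation assay in which fragmented mRNA is enriched with an m6A antibody beside an input fraction. No other treatment or genotype is given by the labels. There were 3 numbered replicates per breed, Large White and Ningxiang, with 1 peak list each. The labels do not say whether each replicate was a separate animal, so the spread between lists may be technical.

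The m6A mark is written on mRNA by a complex in which the enzyme METTL3 and its partner METTL14 are held in nuclear speckles by WTAP, an adaptor subunit. FTO, an oxygenase known in people for its association with body mass, removes the methyl group, and it also acts on a related mark at the mRNA cap. ELAVL1, also called HuR, binds U-rich and AU-rich stretches, mostly in 3′ untranslated regions, and stabilises the bound transcripts. Transcripts of such genes can themselves be methylated, and the lists were read for that alone: they measure neither the amount of the proteins nor their activity.

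The lists held 2373, 2214 and 2533 peaks in Large White and 2034, 2111 and 2222 in Ningxiang. Each peak comes with the authors' own fold enrichment, a linear ratio, and p-value, which describe that peak within its list. Sequencing depth is unknown from such lists, so a gene without a peak was below the calling threshold in that library and is not shown to lack m6A. Of 8 muscle fibre genes used to check the tissue, 7 had a peak in all 6 lists. ACTA1, the skeletal muscle actin, had none in any. Of genes with any peak, 35.7% had a peak in all 6 lists. That share leaves out genes without a peak, such as ACTA1, so it is not a like share for the 8 genes.

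**Figure D1:**
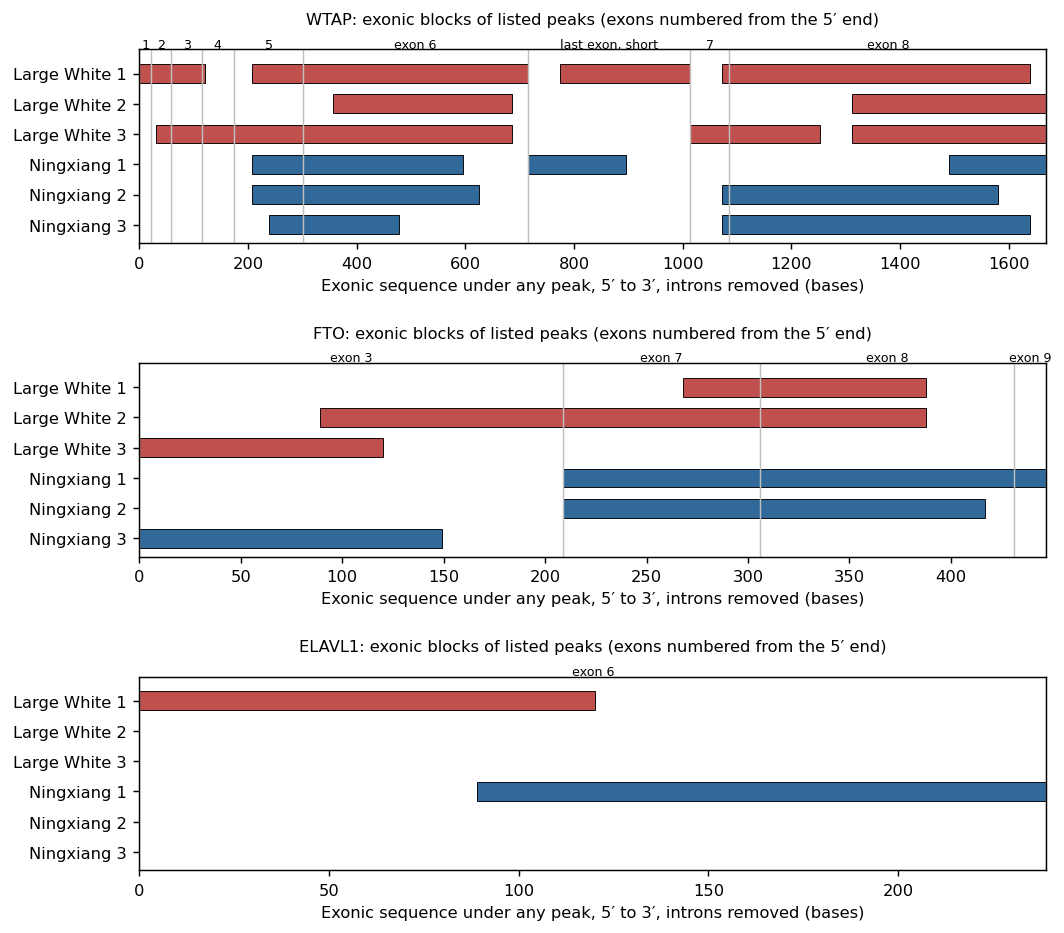
Exonic blocks of every listed peak on WTAP, FTO and ELAVL1 in the 6 lists, Large White above Ningxiang; the horizontal axis is the exonic sequence under any peak in bases, 5′ to 3′, with introns and unlisted sequence removed, and grey lines part the exons. WTAP has blocks in exons 6 and 8 in all 6 lists, FTO falls into an exon 3 site and an exon 7 to 8 site, and ELAVL1 has 1 peak per breed.

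WTAP, on the minus strand of chromosome 1 from 7623256 to 7651591 (susScr11), carried peaks at the 3′ end of its transcript in every list, and a second site at exon 6. The longer transcript, NM_001244241, has 8 exons, numbered here from the 5′ end, and exon 8 is the last. Its peaks overlapped in all 6 lists over 90 bases of exon 8, from 7623345 to 7623434, and over 120 bases of exon 6, from 7630582 to 7630701. These 210 bases were part of 1669 exonic bases of WTAP under a peak in any list. Of genes with a peak in all 6 lists, 80.7% had at least 1 such base, so a shared site is common among them.

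At exon 8, the Large White replicate 1 peak ran from 7623286 to 7624784 with 553 bases in exon 8 and 13 in exon 7, a fold of 2.44 and a log10 p of -22.8. The replicate 2 peak lay within exon 8, from 7623256 to 7623613, with a fold of 2.59 and a log10 p of -29.9. Large White replicate 3 had a peak with those same edges, a fold of 4.75 and a log10 p of -19.5. It was the only list to split this site, with a weaker neighbour from 7623672 to 7624843 that crossed into exon 7, with blocks of 167 and 72 bases, a fold of 2.25 and a log10 p of -8.66. Ningxiang replicate 1 had the shortest peak of the site, 179 bases from 7623256 to 7623434, with a fold of 4.04 and a log10 p of -7.6. Ningxiang replicate 2 covered 494 bases of exon 8 and 13 of exon 7, from 7623345 to 7624784, with a fold of 2.85 and a log10 p of -30.4. The Ningxiang replicate 3 peak had the edges of Large White replicate 1, with a fold of 2.97 and a log10 p of -24.1. The junction between exons 7 and 8, over an intron of 933 bases, was therefore inside a peak in 2 lists of each breed.

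Peaks in 3 lists, Large White replicates 2 and 3 and Ningxiang replicate 1, ended on the last base of the curated WTAP transcript. The RefSeq gene table on Sscrofa11.1 extends WTAP 712 bases further, which these lists could not cover. Peak edges moved in steps: of 5867 peaks with a single block, 55.2% had a length that was a multiple of 30 bases or 1 base short of it, against 6.67% if lengths were spread evenly. Whether edges shared between lists come from a common grid was not tested, so they are not read as support for a shared site.

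At exon 6 of WTAP, the Large White replicate 1 peak ran from 7630344 to 7635279, with 413 bases in exon 6 and 94 in exon 5, a fold of 3.94 and a log10 p of -22. The replicate 2 peak lay within exon 6, from 7630374 to 7630701, with a fold of 3.04 and a log10 p of -18.7. The replicate 3 peak covered the most exonic bases of the 25, 655, from 7630374 to 7642870, with blocks of 29, 56, 59, 128 and 383 bases in exons 2, 3, 4, 5 and 6, a fold of 3.57 and a log10 p of -31.9. In Ningxiang, all 3 peaks joined exon 6 to exon 5 and went no further. Ningxiang replicate 1 had 294 and 94 bases in the 2 exons, a fold of 2.92 and a log10 p of -25.8. Ningxiang replicate 2 had 324 and 94 bases, a fold of 1.9 and a log10 p of -9.51. Ningxiang replicate 3 had 175 and 64 bases, a fold of 2.11 and a log10 p of -11.2. The junction between exons 5 and 6, over an intron of 4429 bases, thus lay inside a peak in 2 Large White lists and in 3 Ningxiang lists.

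Within exon 6, 59 bases from 7630374 to 7630432 were under a peak in 3 of 3 Large White lists and 0 of 3 Ningxiang lists. They are the edge of the shared site: the peak of Ningxiang replicate 2 began on the next base, 7630433. Of all genes with a peak, 12.4% had at least 1 base with that split and 4.86% had one with the opposite split. WTAP had no base of the opposite kind. Genes missing from a list of the breed cannot show its split, and the share among genes in all 6 lists was not taken.

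The exons nearer the 5′ end of WTAP were under peaks in Large White replicates 1 and 3 and in no Ningxiang list. In replicate 1 this was a separate weak peak from 7636643 to 7651127 that joined blocks of 21, 38, 56 and 5 bases in exons 1 to 4, with a fold of 1.81 and a log10 p of -4.63. The files class it as 3′ untranslated, although its 5′ edge lay 464 bases from the 5′ end of the gene. The classes of minus-strand peaks were not used for this reason. Of the 1669 bases, 1134 were under a peak in both breeds, 475 (28.5%) in Large White lists alone and 60 (3.60%) in a Ningxiang list alone. Over the 771 genes with a peak in all 6 lists, 21.3% of such bases were in Large White lists alone and 14.9% in Ningxiang lists alone. The lists of Large White replicates 1 and 3 are longer than every Ningxiang list. That of Large White replicate 2, with 2214 peaks, is shorter than that of Ningxiang replicate 3, with 2222. Whether list length bears on these shares was not tested.

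The shorter WTAP transcript, NM_001244242, has 6 exons, and its last exon carried a weak peak in replicate 1 of each breed. The Large White peak ran from 7629600 to 7629838, with a fold of 2.21 and a log10 p of -6.37. The Ningxiang peak ran from 7629719 to 7629898, with a fold of 2.44 and a log10 p of -3.63. The peaks shared 120 bases. The sequence lies between exons 6 and 7 of the longer transcript, and these are the only WTAP peaks that the files annotate to an exon of the shorter form. The files name at most 1 transcript per peak, so whether the shorter form also holds the exon 6 site was not determined.

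FTO, on the minus strand of chromosome 6 from 31177112 to 31564674, had a peak in every list, yet no base was under a peak in all 6. Its 7 peaks fell at 2 sites, in exon 3 and over exons 7 and 8 of the 9 exons of NM_001112692. Of 771 genes with a peak in all 6 lists, which are 35.7% of genes with any peak, 622 had a base shared by all lists, and FTO was among the others.

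The exon 7 to 8 site of FTO was listed in Large White replicates 1 and 2 and Ningxiang replicates 1 and 2. The Large White replicate 1 peak ran from 31343264 to 31388891, with 38 bases in exon 7 and 82 in exon 8, a fold of 2.76 and a log10 p of -5.25. In replicate 2 it reached 31388950, with 97 and 82 bases, a fold of 4.13, the highest of FTO, and a log10 p of -5.34. The Ningxiang replicate 1 peak had 97 bases in exon 7, 125 in exon 8 and 16 in exon 9, ran from 31177260 to 31388950, and had a fold of 2.98 and a log10 p of -6.67. Its span of 211691 bases was nearly all intron, since the intron between exons 8 and 9 alone takes 165945. The Ningxiang replicate 2 peak had 97 and 111 bases, a fold of 3.88 and a log10 p of -10.2, the lowest of FTO. These 4 peaks shared 120 bases, 82 in exon 8 and 38 in exon 7.

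The exon 3 site of FTO was listed in Large White replicates 2 and 3 and Ningxiang replicate 3. The Large White peaks were the weakest by p of all 25: replicate 2 had 120 bases from 31444872 to 31444991, a fold of 1.9 and a log10 p of -2.6, and replicate 3 had 120 bases from 31444961 to 31445080, a fold of 1.94 and a log10 p of -3.23. The Ningxiang replicate 3 peak had 149 bases from 31444932 to 31445080, a fold of 2.86 and a log10 p of -5.8. The 3 peaks shared 31 bases, from 31444961 to 31444991. These are also the whole overlap of the Large White peaks with each other, which is less than 50% of either. Large White replicate 2 was the only list with both FTO sites, and the lists of replicate 3 in both breeds had the exon 3 site without the other. Of 447 exonic bases of FTO under any peak, 328 were covered in both breeds, 60 in Large White alone and 59 in Ningxiang alone.

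ELAVL1, on the plus strand of chromosome 2 from 71207141 to 71245849, had 1 peak in Large White replicate 1, 1 in Ningxiang replicate 1 and none in the other 4 lists. Both lay in exon 6, the last exon of NM_001195334. The Large White peak took 120 bases from 71244659 to 71244778, with a fold of 1.66 and a log10 p of -8.09. The Ningxiang peak took 150 bases from 71244748 to 71244897, with a fold of 1.67 and a log10 p of -5.74. They shared 31 bases. The files class the first as exon 6 and the second, further towards the 3′ end, as 3′ untranslated region, and on this strand the classes follow the direction of transcription. The 3′ edge of the Ningxiang peak was 952 bases from the end of the gene. Of all genes with a peak, 0.509%, or 11 genes, were listed in replicate 1 of each breed and in no other list.

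**Figure D2:**
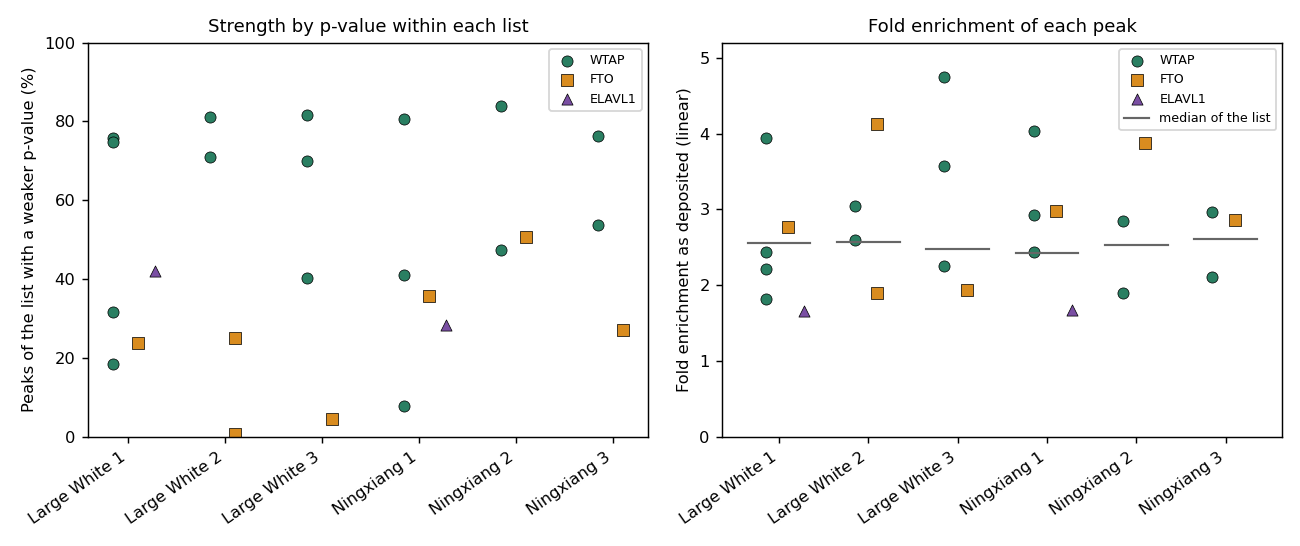
Left, the share of peaks of the same list with a weaker p-value (%), and right, the deposited fold enrichment (linear), for each of the 25 peaks by list; grey bars on the right are list medians over all peaks. The best WTAP peak of each list stands at 75.8% or above by p, every FTO peak at 50.8% or below, and ELAVL1 has the lowest fold of the 3 genes in both of its lists.

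By p-value within a list, WTAP ranked highest of the 3 genes in each list. Its best peak was stronger than 75.8%, 81.1% and 81.7% of the peaks in Large White replicates 1, 2 and 3 and than 80.7%, 84.0% and 76.2% in Ningxiang replicates 1, 2 and 3. The site that held it changed: exon 8 in Large White replicates 1 and 2 and Ningxiang replicates 2 and 3, exon 6 in Large White replicate 3 and Ningxiang replicate 1. The best FTO peak was stronger than 23.7%, 25.1% and 4.46% of the list in Large White and than 35.6%, 50.8% and 27.1% in Ningxiang. That peak lay over exons 7 and 8 in replicates 1 and 2 of each breed and in exon 3 in replicate 3 of each, so the values mix different sites. Every Large White value of FTO was below every Ningxiang value. Of the 771 genes with a peak in all 6 lists, 8.04% had that order and 13.6% the opposite one. By highest fold FTO did not have that order, with 4.13 in Large White replicate 2 and 2.98, 3.88 and 2.86 in Ningxiang replicates 1, 2 and 3. The lists differ in length and depth is unknown, so ranks do not show a change in methylation and were not tested. The ELAVL1 peaks were stronger than 41.9% of the list in Large White replicate 1 and than 28.4% in Ningxiang replicate 1.

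By the highest fold in a list, WTAP was above FTO in 4 of 6 lists. The exceptions were Large White replicate 2, with 3.04 for WTAP and 4.13 for FTO, and Ningxiang replicate 2, with 2.85 and 3.88. List medians over all peaks were 2.42 to 2.605. WTAP folds ran from 1.81 to 4.75. Its best peaks by p stood, by fold, above 45.2%, 50.9% and 80.0% of the peaks in Large White replicates 1, 2 and 3. In Ningxiang replicates 1, 2 and 3 its best peaks by p stood above 69.6%, 61.6% and 62.6%. By fold, the exon 7 to 8 peaks of FTO stood above 57.7% and 84.6% of the peaks in Large White replicates 1 and 2. In Ningxiang replicates 1 and 2 they stood above 70.8% and 83.7%. The exon 3 peaks stood above 14.7% and 18.4% in Large White replicates 2 and 3 and above 59.1% in Ningxiang replicate 3. Across lists the sites overlapped: exon 3 had 2.86 in Ningxiang replicate 3, and exon 7 to 8 had 2.76 in Large White replicate 1. Only Large White replicate 2 had both, with 4.13 for exon 7 to 8 and 1.9 for exon 3. Both ELAVL1 folds lay near the low end, above only 2.34% of the peaks in Large White replicate 1 and 3.15% in Ningxiang replicate 1.

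**Figure D3:**
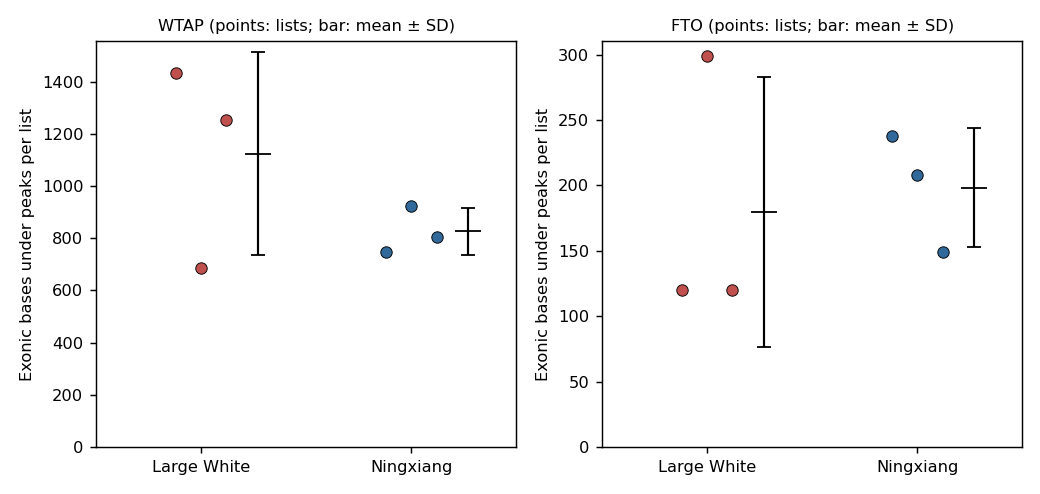
Exonic bases under peaks per list for WTAP and FTO; points are the 3 lists of each breed and the bar beside them is the mean ± SD. The breeds overlap for both genes, and for WTAP the Large White lists spread from 686 to 1432 bases around the Ningxiang ones, 747 to 925.

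The breeds were not separated in the number of peaks or in the exonic sequence under them on any of the 3 genes. WTAP had 4, 2 and 3 peaks in Large White and 3, 2 and 2 in Ningxiang, which is 3 ± 1 against 2.33 ± 0.577 (SD, n = 3 each; exact two-sided permutation p = 0.7). Its peaks covered 1432, 686 and 1252 exonic bases in Large White and 747, 925 and 805 in Ningxiang. The means were 1123 ± 389 and 826 ± 90.8 bases (SD, n = 3 each; exact permutation p = 0.4), and the lowest Large White list lay below all Ningxiang lists. Of all genes with a peak, 7.78% had more covered bases in every Large White list than in every Ningxiang list and 2.92% had fewer, and none of the 3 genes was in either set.

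FTO had 1, 2 and 1 peaks in Large White and 1 in each Ningxiang list (exact permutation p = 1, n = 3 each). The peaks covered 120, 299 and 120 bases in Large White and 238, 208 and 149 in Ningxiang, means of 180 ± 103 and 198 ± 45.3 (SD, n = 3 each; exact permutation p = 0.8). The difference of -18.7 bases turned to 11.2 without Large White replicate 1, to 11.2 without Large White replicate 3 and to 1.17 without Ningxiang replicate 1, so no direction is given. ELAVL1 had 120 bases in Large White replicate 1 and 150 in Ningxiang replicate 1 (exact permutation p = 1, n = 3 each), and replicate 1 of either breed alone gives its value. FTO and WTAP were listed in 3 of 3 Large White and 3 of 3 Ningxiang replicates, ELAVL1 in 1 of 3 and 1 of 3 (Fisher's exact test, two-sided p = 1 for each). For FTO and WTAP, listed everywhere, Fisher's test could give no other value, so it says nothing about the breeds. After adjustment over these 9 tests each p was 1. With 3 lists against 3 none of the 9 tests can give a p below 0.1. No member was listed in 3 of 3 replicates of 1 breed and 0 of 3 of the other, as 1.34% of genes were in favour of Large White and 0.741% in favour of Ningxiang.

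Among the 771 genes with a peak in all 6 lists the median gene had 9 peaks over the 6 lists and 429 exonic bases per list. WTAP had 16 peaks and 974.5 bases, more bases than 88.6% of these genes. FTO had 7 peaks and 189 bases, more than 3.63% of them. Each gene was also set against those listed in the same lists, by the mean absolute difference in the within-list percentile of the best p. The nearest genes to WTAP over 6 lists were UXS1 at 2.45 percentage points, TOP2B at 2.56 and TNIP1 at 2.89, of 770 genes compared. The nearest to FTO were CCDC174 at 8.51 and CLN6 at 8.59 points. ELAVL1 could be set against 10 genes over 2 lists, and the nearest were GABBR1 at 3.83, PCCB at 5.38 and TMEM126A at 6.09 points.

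The wider machinery was mostly out of reach of these lists. Of 31 writers, erasers and readers considered, 6 were found to have a curated protein-coding RefSeq transcript, the kind to which 99.8% of all listed peaks were assigned. Of those 6, 4 had a peak. Of all genes with a curated transcript, 53.5% had one. FTO, WTAP and ELAVL1 were taken as genes with listed peaks, so the count of 4 was partly set in advance. It is not read against the 53.5%. Among writers only WTAP of 13 was found to have a curated transcript, and among erasers only FTO of 2. The writer VIRMA was not found by that name among the RefSeq genes used, so its transcripts were not assessed. Among readers and related binding proteins ELAVL1 and RBMX had peaks, while HNRNPC, a nuclear RNA-binding protein, and PRRC2A had none in any list. The METTL3 and METTL14 subunits, the demethylase ALKBH5 and the YTH-domain readers have no curated transcript in the RefSeq table used and could not be assessed.

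RBMX, a nuclear RNA-binding protein on the X chromosome that takes part in splicing, was listed in Large White replicates 1 and 3 and Ningxiang replicate 1. Its strongest peak, in Large White replicate 1, ran from 111970964 to 111971533 over 180 exonic bases, with a fold of 2.63 and a log10 p of -26.5. Large White replicate 3 had 3 peaks with folds of 1.75, 1.92 and 1.81. The Ningxiang replicate 1 peak, from 111972275 to 111972864, had a fold of 1.85 and a log10 p of -10.1 and did not overlap them. RBMX has close relatives elsewhere in mammalian genomes, so its reads may be shared.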

How the data were processed

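The data are 6 peak lists deposited by the authors, called separately for each replicate, and each was taken as the list of the immunoprecipitated sample whose description names it. Per the file headers, the deposited values are a p-value for each peak, its log10 form and the log10 of an adjusted p-value (handled as scores), and a fold enrichment, a linear ratio. Coordinates are on susScr11, and ChIPseeker 1.30.2, FastQC 0.11.9 and HOMER were used, per the submitters' processing notes. For the aligner and the caller, the name is not given in the sources used here. Starts were printed after adding 1, since they count from 0.

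Exonic blocks were read from the block columns and joined within a list. Listed exon numbers rose along the chromosome in 436 of 436 plus-strand and 540 of 540 minus-strand transcripts with peaks in 2 or more exons, so minus-strand numbers were turned round. All 25 peaks carried the RefSeq gene number of their gene, and no peak of another gene lay within the 3 genes. Breeds were compared with exact two-sided permutation tests and Fisher's exact test (SciPy 1.17.1, Python 3.11.15, pandas 2.3.3, NumPy 2.4.6), with Benjamini-Hochberg adjustment over 9 tests. The permutation, sign-flip and interval-joining functions were checked on small worked examples. The rule for non-overlapping breeds was run on shuffled values with planted, fully separated genes, which checks the code alone. The code for exon numbers and shared bases was not checked in this way. The named genes were FTO, WTAP, ELAVL1, a list of m6A genes, and the 3 genes nearest to each in within-list percentile, of which 1 is not reported here. The members and lists were chosen with earlier results of these data known. Alternatives were the stronger peaks of each list, equal list lengths, merged peaks or genomic spans, each replicate left out, and the replicate number as a block. Input and immunoprecipitated reads and genome sequence were not used here. Sequencing depth is unknown, so no interval or limit from counts is given.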

Additional observations from a re-analysis of the deposited data

How the results depend on the processing

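With 3 lists per breed the exact tests cannot go below p = 0.1, so none could pass 0.05 under any setting, and the alternatives say nothing about stability. The directions below are of differences that could not be called. With only the 50% of peaks in a list that had the lower p-values, the FTO difference in peaks per list, Large White minus Ningxiang, turned from 0.333 to -0.333, since 1 FTO peak remained, in a Ningxiang list, and ELAVL1 had none left in either breed. With all lists shortened to their 2034 strongest peaks, it was -0.333 as well, because both exon 3 peaks of Large White were too weak to be kept, and FTO was listed in 2 Large White and 3 Ningxiang lists. WTAP was listed in 3 and 3 under both. Leaving out 1 replicate gave differences of -78.3 to 11.2 exonic bases for FTO, 143 to 516 for WTAP and -50 to 40 for ELAVL1. In peaks per list it gave 0 to 0.5, 0.167 to 1.17 and -0.333 to 0.333. The ELAVL1 difference of -10 bases turned to 10 without Large White replicate 2 or 3 and to 40 without Ningxiang replicate 1. With 50% of the shorter block required to overlap, the 210 shared WTAP bases stayed and the 31 of ELAVL1 fell to 0. FTO had no base shared by all its lists under either setting, so its exon 3 site was not tested in this way.

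Over all genes, the replicate numbers gave no clear sign of pairing the samples. Deviations of same-numbered lists from their breed means, in exonic bases over all genes, correlated at 0.0425, 0.0506 and 0.0222. Lists with different numbers correlated at -0.0945 to 0.0514. Such correlations cannot show pairing at single sites. ELAVL1 and the last exon of the shorter WTAP transcript were listed in replicate 1 of each breed only. The exon 3 site of FTO stood without the other FTO site in replicate 3 of each breed. Whether the replicate numbers bear on these sites was not tested, and the labels do not say whether replicates were handled in pairs. With the replicate block, p was 0.5 for the WTAP differences of 0.667 peaks and 298 bases and 0.75 for the FTO difference of -18.7 bases (exact sign permutation, n = 3 pairs, smallest possible p 0.25). The planned count of the letters GGAC under peaks was not run, because no genome sequence was used here.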
